A study of Mus musculus with 48 samples.

Results

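A pair of sorted populations of mouse bone marrow stands at either end of a developmental branch: the MDP, known as the macrophage and dendritic cell progenitor, and the Ly6c+ monocyte, the inflammatory monocyte that bone marrow releases into blood. Their comparison covers 2 of the 48 samples of the series, 1 library each, taken by name from the table of sorted populations, and it sets MDP over Ly6c+ monocyte throughout. MDP were sorted as lineage-negative cells, high for Flk2 (the product of Flt3) and high for c-kit. Ly6c+ monocytes were sorted as cells negative for CD3 and B220 and positive for CD115 (the product of Csf1r) and Gr1, an antibody target that covers Ly6C and Ly6G. The labels name no treatment, culture or transgene for either. The strain field reads C57BL/8 for the MDP sample and C57BL/10 for the monocyte sample. These numbers climb by 1 from each sorted sample to the next, so no strain difference is read from them. For the sorted cells the labels used here name no age, no sex and no number of mice per library.

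In bone marrow, monocytes arise from progenitors that divide, carry the growth factor receptors Flt3 and c-kit, and can also give rise to dendritic cells. Granule proteases such as cathepsin G are made early in this lineage, while lysozyme, Fc receptors and integrins accumulate as cells become phagocytes. The transcription factors IRF8 and C/EBP beta are both known to act on this path, IRF8 in dendritic cells and monocytes and C/EBP beta in monocytes and macrophages.

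The libraries hold 3′ end reads of polyadenylated RNA. Counts totalled 5148680 in MDP and 873734 in Ly6c+ monocytes, so 1 count is worth 0.194 CPM (counts scaled to a fixed library total) in MDP and 1.14 CPM in monocytes. A gene with 0 counts may still have had up to 0.583 CPM in MDP or 3.43 CPM in monocytes, the worth of 3 counts. No population has a replicate library, no test was made, and no difference below has a replicate check. Intervals beside ratios are exact binomial 95% intervals of the counts. They cover counting error only, and without molecular identifiers several reads can stem from 1 molecule. In a bulk library, fewer cells of a type and less RNA per cell cannot be told apart.

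The sort genes were read first, as a check of the labels and not as a finding. Kit, the receptor used for the MDP gate, had 52.1 CPM in MDP and 1.14 CPM in monocytes. Flt3 had 345 CPM in MDP and 35.5 CPM in monocytes, and Csf1r had 381 CPM in MDP and 1141 CPM in monocytes. Of the Gr1 targets, Ly6c2 had 332 CPM in MDP and 3268 CPM in monocytes and Ly6c1 had 15.9 CPM in MDP and 179 CPM in monocytes, while Ly6g has no row in the table. Both libraries thus carried the RNA that their gates name. Cd3e had 0 counts in both. Ptprc, which encodes all forms of CD45 including B220, had 80.4 CPM in MDP and 366 CPM in monocytes. Other sorted populations are used below only for context, and among them MP, labelled low for Flk2, had 447 CPM of Flt3 RNA, not less than the 345 CPM of MDP.

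The named marker genes lay far apart. Ctsg, which encodes the granule protease cathepsin G, had 1956 CPM in MDP and 99.6 CPM in Ly6c+ monocytes (19.6-fold higher in MDP, interval 15.9 to 24.5). Chi3l3, a chitinase-like secreted protein of myeloid cells, had 6.99 CPM in MDP and 2291 CPM in monocytes (328-fold lower in MDP, interval 236 to 469). Cebpb, the gene of C/EBP beta, had 52.1 CPM in MDP and 588 CPM in monocytes (11.3-fold lower in MDP, interval 9.73 to 13.1). Among the sorted bone marrow populations Chi3l3 was high in the Ly6c+ monocyte library and at most 22.4 CPM in MP, MDP, CDP, preDC and Ly6c- monocytes. Cebpb was higher still in Ly6c- monocytes (1299 CPM), and Ctsg was lower there (14.6 CPM).

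**Figure D1:**
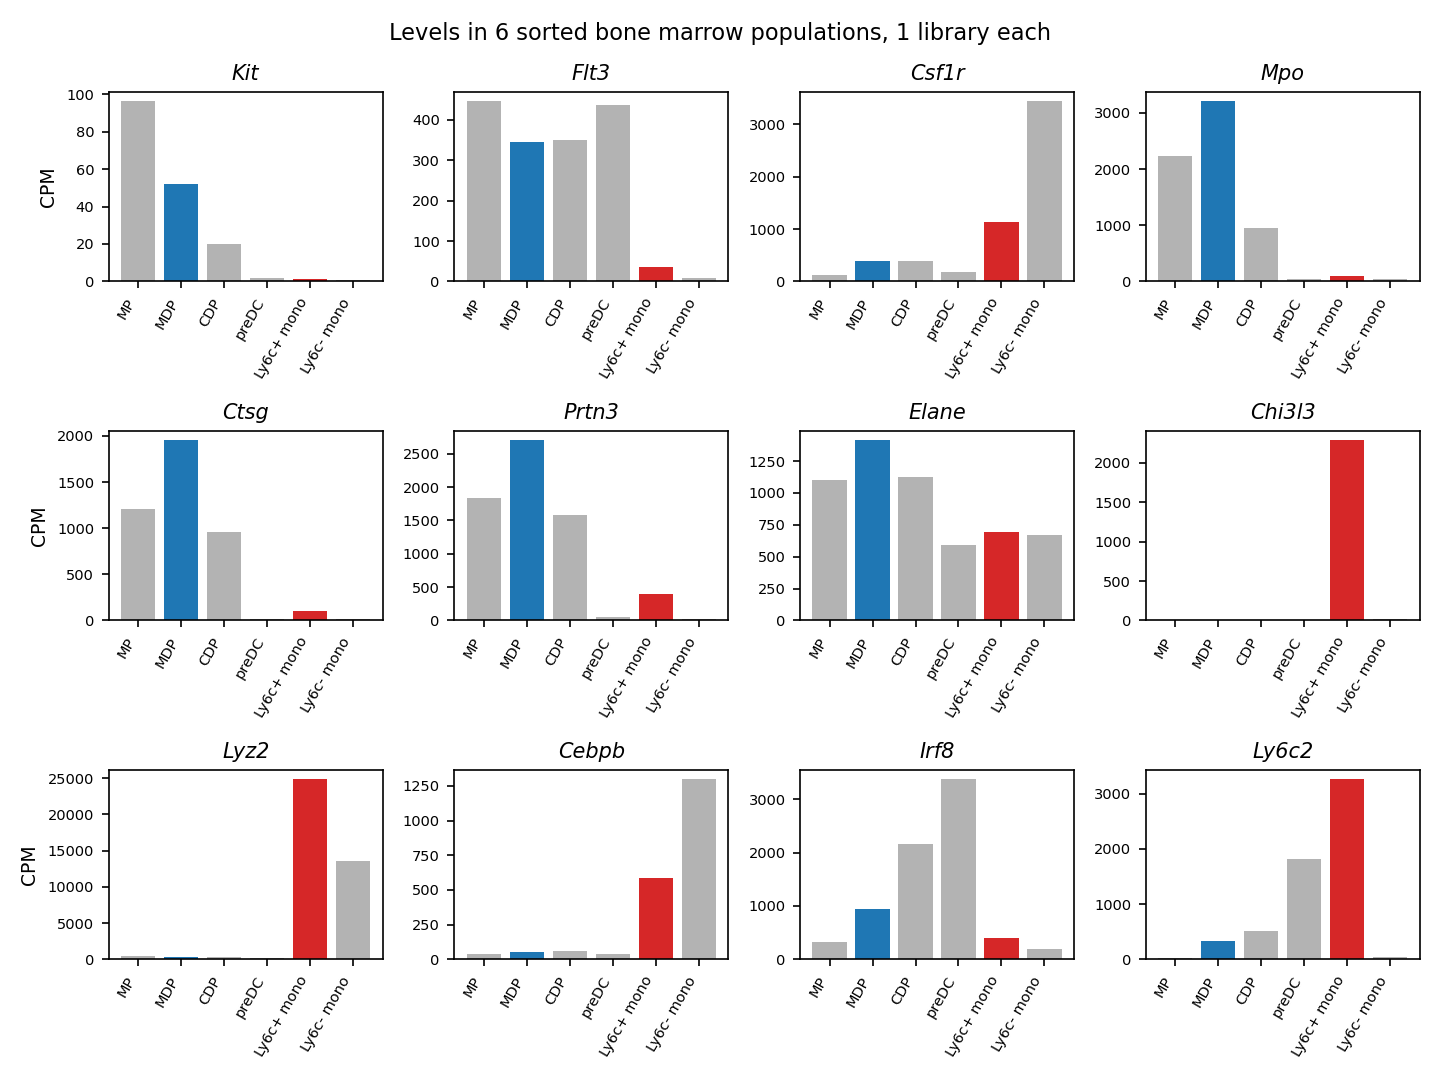
CPM of 12 genes in 6 sorted bone marrow populations (bars from 0, 1 library each, no error bar because there are no replicates), with MDP in blue and Ly6c+ monocytes in red. Mpo, Ctsg and Prtn3 are high in MP, MDP and CDP, Chi3l3 in Ly6c+ monocytes, and Irf8 reaches 3375 CPM in preDC.

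Over the whole table, 7651 of 13963 genes reached 20 CPM in either library and were compared by the log2 ratio of CPM with 10 CPM added. Of these, 1815 were at least 2-fold higher in MDP (23.7% of genes compared) and 1075 at least 2-fold lower (14.1%), or 37.8% in either direction. At 4-fold, 405 were higher (5.29%) and 367 lower (4.8%). The median log2 ratio of all genes compared was 0.32, not 0. With TMM scaling, which allows for a few abundant genes taking up counts, the median was 0.09 and the 2-fold counts were 1396 higher and 1309 lower. The 10 most abundant genes held 4.11% of counts in MDP and 7.08% in monocytes, where lysozyme Lyz2 led. Counts of gene groups are therefore read against these shares, and groups whose ratios lie close to 2-fold are given under both scalings.

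**Figure D2:**
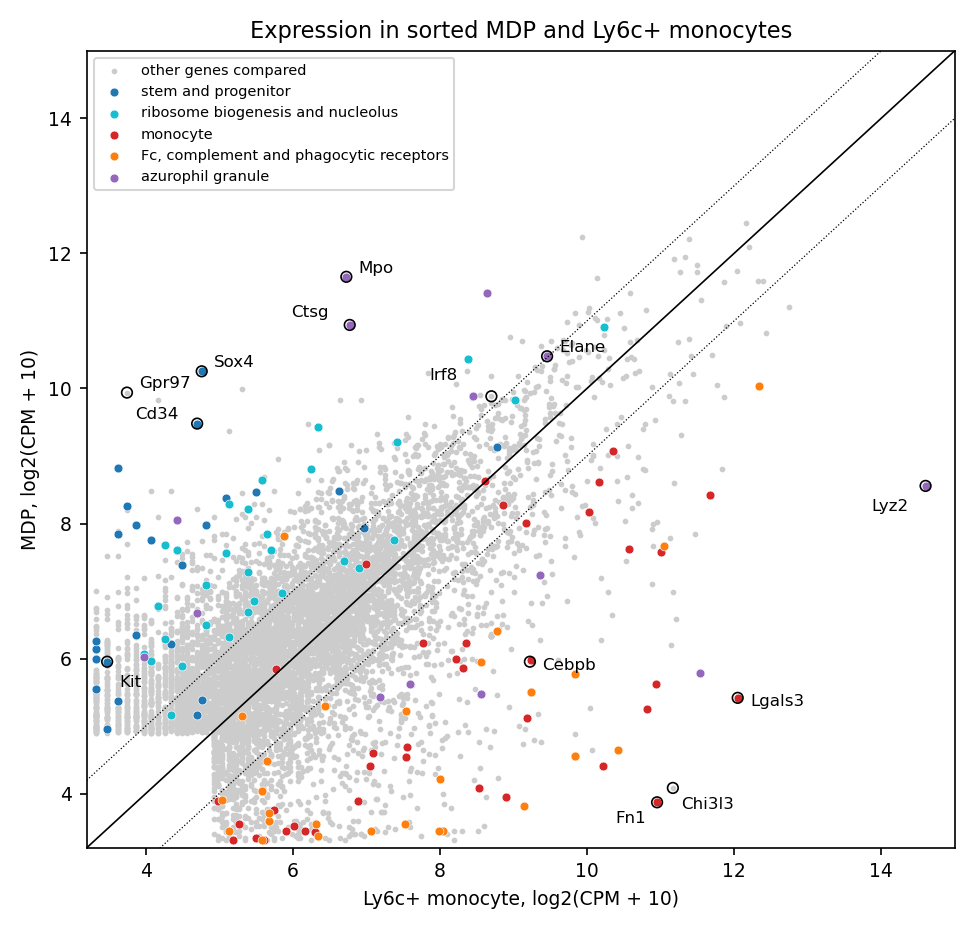
Each point is 1 of the genes compared, at log2(CPM + 10) in Ly6c+ monocytes (x) and in MDP (y), with 5 gene lists in colour, labelled genes ringed, the line of equal levels solid and the 2-fold lines dotted. Stem and progenitor genes lie above the line, most monocyte genes below it, and azurophil granule genes on both sides.

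With 10 CPM added, the largest ratio in favour of MDP was that of Gpr97, an adhesion G protein-coupled receptor of myeloid cells, at 972 CPM in MDP and 3.43 CPM in monocytes (283-fold higher in MDP, interval 96.8 to 1373). Ccnd2, the gene of the G1 regulator cyclin D2, was next on that scale, with 902 CPM in MDP and 8.01 CPM in monocytes (113-fold higher in MDP, interval 54.6 to 280.1). Sox4, a transcription factor of progenitors, had 1211 CPM in MDP and 17.2 CPM in monocytes. Both libraries were far apart for each of these genes, and MP and CDP stood with MDP: Sox4 had 1512 CPM in MP and 926 CPM in CDP. Further genes among the 15 largest were Igfbp4, a binding protein of insulin-like growth factors (1013 CPM in MDP and 29.8 CPM in monocytes), Nrgn, which encodes the calmodulin-binding protein neurogranin (228 CPM in MDP and 2.29 CPM in monocytes), and the mitochondrial nucleotide kinase Nme4 (349 CPM in MDP and 10.3 CPM in monocytes). Sh2d5 had 286 CPM in MDP and 3.43 CPM in monocytes. Dntt, the DNA polymerase that adds bases at antigen receptor joints and marks early lymphoid progenitors, had 348 CPM in MDP and 6.87 CPM in monocytes, and it was higher in MP (869.7 CPM). Ptprcap, a protein that binds CD45, had 651 CPM in MDP and 25.2 CPM in monocytes.

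In the other direction Chi3l3 and Fn1 led with 10 CPM added, while the fold without it was larger for Cd177, which had 3 counts in MDP. Fn1, the gene of the matrix protein fibronectin, had 4.66 CPM in MDP and 1973 CPM in monocytes (423-fold lower in MDP, interval 284 to 662), while Ly6c- monocytes had 2.24 CPM. Lgals3, which encodes the lectin galectin-3, had 32.8 CPM in MDP and 4229 CPM in monocytes (129-fold lower in MDP, interval 110.4 to 151). Lyz2, the lysozyme of myeloid cells, had 367 CPM in MDP and 24882 CPM in monocytes (67.8-fold lower in MDP, interval 64.7 to 71.1), and its near-identical copy Lyz1 had 45.3 CPM in MDP and 2951 CPM in monocytes. Reads of such copies, Ly6c1 and Ly6c2 included, cannot be assigned to either copy with certainty. Fn1 was thus high in the Ly6c+ library only among these 3 libraries, while Lyz2 was high in both monocyte libraries (13622 CPM in Ly6c-). Tgfbi, a matrix protein induced by TGF beta, had 11.3 CPM in MDP and 1187 CPM in monocytes. The complement component C3 had 15.1 CPM in MDP and 1062 CPM in monocytes, the chemokine gene Ccl6 28.4 CPM in MDP and 1800.3 CPM in monocytes, and the purine enzyme gene Xdh 5.24 CPM in MDP and 470.4 CPM in monocytes. Slfn1, of the Schlafen family, had 0.971 CPM in MDP and 358 CPM in monocytes.

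**Figure D3:**
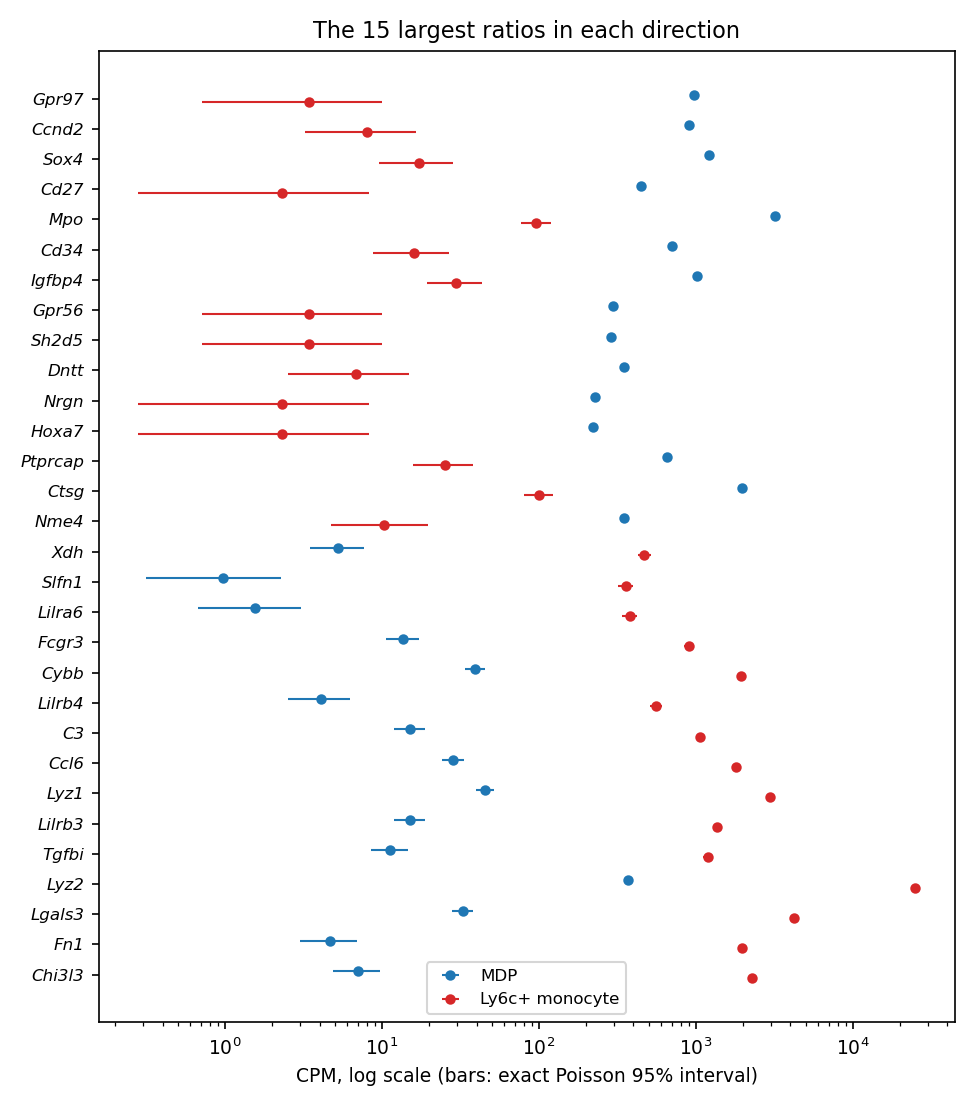
CPM on a log axis for the 15 genes with the largest ratio in each direction among genes that reach 100 CPM, MDP in blue and Ly6c+ monocytes in red, with exact Poisson 95% intervals as bars. No pair of intervals overlaps, which follows from the choice of the largest ratios. Over all genes compared, the ratio interval excluded 1 for all 1815 genes at least 2-fold higher in MDP and all 1075 lower. The bars are widest where a library had few counts, as for Gpr97 in monocytes.

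Genes of stem and progenitor cells were higher in MDP for 22 of 26 compared members and lower for 0, where 23.7% of all genes were higher and 14.1% lower, with a median log2 ratio of 2.75. This list has 44 genes, of which 42 have a row and 26 reached the filter, 20 of them in MDP only, so the count describes those genes and not the list. Kit and Flt3 are among the 22 higher members and were part of the gate. Outside the gate, Cd34, a surface sialomucin of progenitors, had 704 CPM in MDP and 16.0 CPM in monocytes (44.0-fold higher in MDP, interval 26.2 to 80.5). Cd27, a receptor of the TNF receptor family, had 444 CPM in MDP against 2 counts, or 2.29 CPM, in monocytes. The transcription factor genes Myb (242 CPM in MDP and 4.58 CPM in monocytes), Hoxa7 (221 CPM in MDP and 2.29 CPM in monocytes) and Myc (322 CPM in MDP and 24.0 CPM in monocytes) were each more than 4-fold higher. Erg, Tal1, Hoxa9 and Muc13 had 0 counts in monocytes. Against the floor of 3 counts in that library, Hoxa9 was at least 19.4-fold higher, Erg at least 17.8-fold, Muc13 at least 15.7-fold and Tal1 at least 10.8-fold. The members within 2-fold were Runx1, Lyl1, Zfpm1 and Ly6a. The 16 members with a row that stayed under the filter were below 20 CPM in both libraries, from Gata2 (18.8 CPM in MDP and 3.43 CPM in monocytes) to Slamf1, which had no count in either.

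Granule genes were read by granule type. Azurophil granules are filled first in myeloid development, and 8 of 14 compared members of their list were higher in MDP and 6 lower (median log2 ratio 1.23). Of the 14, 3 reached the filter in MDP only, and a filter at 100 CPM turned the median negative. Mpo, the gene of myeloperoxidase, had 3211 CPM in MDP and 96.1 CPM in monocytes (33.4-fold higher in MDP, interval 27.0 to 41.9). Prtn3, the gene of proteinase 3, had 2704 CPM in MDP and 390.3 CPM in monocytes (6.93-fold higher in MDP, interval 6.22 to 7.74). Elane, the gene of neutrophil elastase, had 1415 CPM in MDP and 694 CPM in monocytes (2.04-fold higher in MDP, interval 1.88 to 2.22). The 3 genes were thus higher in MDP to different degrees, and Elane crossed the 2-fold line by little: with TMM scaling 7 members, not 8, were 2-fold higher. In preDC Elane had 595 CPM, where Prtn3 had 45.8 CPM, Mpo 45.3 CPM and Ctsg 16.2 CPM. Elane also had 723 CPM in splenic pDC, 850 CPM in DN DC and 886 CPM in CD8+ DC. Prtn3 had 24.8 CPM, 28.9 CPM and 22.7 CPM in these 3 libraries. The 694 CPM of Elane in monocytes was thus no higher than in these dendritic cells. What the Elane row counts there was not tested. Cst7, the protease inhibitor cystatin F, had 255 CPM in MDP and 11.4 CPM in monocytes, and Srgn, the proteoglycan serglycin that packs granule proteases, had 943 CPM in MDP and 341 CPM in monocytes. Members lower in MDP included both lysozymes, Gstm1 and Ctsc. Of these Ctsc, the peptidase that activates granule serine proteases, had 34.4 CPM in MDP and 369 CPM in monocytes (10.7-fold lower in MDP, interval 8.90 to 13.0), opposite to the proteases it activates. The list summed to 11312 CPM in MDP and 30829 CPM in monocytes, where Lyz2 alone had 24882 CPM.

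To show the DNA next to the start of the granule genes that were high in MDP, the 250 bases before the start of Ctsg, Mpo, Elane and Prtn3 are printed here with that of Chi3l3, which was low in MDP and is named Chil3 in RefSeq. Sequences are from RefSeq on GRCm38.p6, whereas the counts were made on mm9, and all are 5′ to 3′ on the strand of the gene. Ctsg is chr14:56102575-56102824 (minus strand), Mpo chr11:87793534-87793783 (plus), Elane chr10:79886062-79886311 (plus), Prtn3 chr10:79879417-79879666 (plus) and Chil3 chr3:106167565-106167814 (minus). Prtn3 and Elane lie beside each other on chromosome 10. Capitals mark GAGGAA, a form of the site for the myeloid factor PU.1, on either strand. Other and shorter forms of that site were not searched, so a window without capitals may still hold them.
Ctsg: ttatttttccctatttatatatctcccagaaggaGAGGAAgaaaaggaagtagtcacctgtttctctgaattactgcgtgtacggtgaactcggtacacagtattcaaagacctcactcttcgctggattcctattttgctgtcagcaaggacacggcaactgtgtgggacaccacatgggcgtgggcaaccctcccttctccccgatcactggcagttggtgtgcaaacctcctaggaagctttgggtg
Mpo: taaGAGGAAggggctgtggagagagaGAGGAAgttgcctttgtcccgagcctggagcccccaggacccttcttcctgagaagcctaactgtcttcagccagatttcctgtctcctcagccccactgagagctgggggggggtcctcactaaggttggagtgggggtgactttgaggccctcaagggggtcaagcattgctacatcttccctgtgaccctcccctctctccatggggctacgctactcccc
Elane: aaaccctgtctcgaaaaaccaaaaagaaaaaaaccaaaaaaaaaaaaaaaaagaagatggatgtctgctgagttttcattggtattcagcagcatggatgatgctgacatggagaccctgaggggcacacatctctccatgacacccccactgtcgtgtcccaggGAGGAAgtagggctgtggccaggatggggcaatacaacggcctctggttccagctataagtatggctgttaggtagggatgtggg
Prtn3: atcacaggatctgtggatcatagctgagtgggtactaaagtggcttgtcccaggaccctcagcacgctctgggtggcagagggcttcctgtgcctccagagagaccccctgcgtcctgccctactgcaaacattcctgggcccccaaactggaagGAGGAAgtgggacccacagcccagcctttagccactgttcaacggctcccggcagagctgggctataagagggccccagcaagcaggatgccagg
Chil3: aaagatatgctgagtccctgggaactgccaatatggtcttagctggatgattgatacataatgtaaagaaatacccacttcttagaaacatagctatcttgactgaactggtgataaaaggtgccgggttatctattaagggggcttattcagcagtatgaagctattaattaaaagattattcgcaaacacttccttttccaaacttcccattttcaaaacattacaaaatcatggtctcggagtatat
GAGGAA occurred once each before Ctsg, Elane and Prtn3, in 2 places before Mpo, and not before Chil3, nor in the same window of Lyz2 (chr10:117282273-117282522, minus strand). It occurred in 23.4% of 32536 such windows over all genes. The C/EBP letters TTGCNNAA, searched on both strands, were in none of the 6 windows and in 9.57% of all windows. A match describes the sequence and not a site in use.

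Genes of the secondary and tertiary granules, which neutrophils fill later, were lower in MDP for 12 of 12 compared members, with a median log2 ratio of -2.53. Chi3l3 is one of the 12. Of these, 7 reached the filter in the monocyte library only and 8 of 20 members with a row stayed under it, so the count describes the genes that passed and not the list. Their summed level was 328 CPM in MDP and 5519 CPM in monocytes. Cd177, a neutrophil surface protein, had 3 counts (0.583 CPM) in MDP and 264 CPM in monocytes. Ngp, a neutrophil granule protein, had 32.2 CPM in MDP and 298 CPM in monocytes, the lactoferrin gene Ltf 4.47 CPM in MDP and 58.4 CPM in monocytes, and the lipocalin gene Lcn2 8.55 CPM in MDP and 118 CPM in monocytes. Hp, the haemoglobin-binding haptoglobin, had 128 CPM in MDP and 1872 CPM in monocytes, and Fcnb, which encodes the lectin ficolin B, had 0 counts in MDP and 66.4 CPM in monocytes. The Gr1 antibody also binds neutrophils, and other neutrophil genes were read beside these values. Cxcr2, a receptor of mature neutrophils, had 6.60 CPM in MDP and 0 counts in monocytes, Mmp9 had 3.11 CPM in MDP and 4.58 CPM in monocytes, and Retnlg 3.50 CPM in MDP and 14.9 CPM in monocytes. The alarmin genes S100a8 (1.55 CPM in MDP and 2.29 CPM in monocytes) and S100a9 (20.8 CPM in MDP and 64.1 CPM in monocytes) were low in both. S100a8 was highest in CDP, at 5.74 CPM, among the 9 sorted populations. Its low value here need not mean a low level of the RNA. The part of neutrophil RNA in the granule values of the monocyte library was not tested.

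Of the monocyte list, 40 of 44 compared members were lower in MDP and 0 higher (median log2 ratio -2.48). Of the 44, 23 reached the filter in monocytes only, as did 17 of the 27 receptor genes, 16 of the 24 sensing genes and 16 of the 36 interferon-stimulated genes described below, and these counts too describe the genes that passed. Ly6c1, Ly6c2 and Csf1r are in the monocyte list and were part of the gate. Of the members outside the gate, Ccr2, the receptor by which monocytes leave bone marrow, had 13.4 CPM in MDP and 176 CPM in monocytes (13.2-fold lower in MDP, interval 9.84 to 17.7). Fcgr1, the high-affinity Fc gamma receptor, had 5 counts (0.971 CPM) in MDP and 254 CPM in monocytes, and Fcgr3 had 13.6 CPM in MDP and 906 CPM in monocytes. Cd68 had 52.8 CPM in MDP and 597 CPM in monocytes, and Vcan, the proteoglycan versican, 0 counts in MDP and 38.9 CPM in monocytes. Members that differed by less than 2-fold included Spn, the sialoglycoprotein CD43 (159.8 CPM in MDP and 118 CPM in monocytes), Plac8 (47.4 CPM in MDP and 44.6 CPM in monocytes) and Pou2f2 (386 CPM in MDP and 383 CPM in monocytes). Cx3cr1, a chemokine receptor of monocytes and their progenitors, had 53.8 CPM in MDP and 287 CPM in monocytes, and F13a1, a subunit of coagulation factor XIII, had 278 CPM in MDP and 1038 CPM in monocytes, so both were above 50 CPM in MDP while lower than in monocytes.

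Receptors for antibody, complement and cell debris were lower in MDP for 25 of 27 compared members (median log2 ratio -2.61). Itgb2 and Itgam encode the 2 chains of complement receptor 3. Itgb2 had 44.7 CPM in MDP and 902 CPM in monocytes (20.2-fold lower in MDP, interval 17.4 to 23.5), and Itgam had 35.5 CPM in MDP and 596 CPM in monocytes. The paired immunoglobulin-like receptors Lilrb3 (15.1 CPM in MDP and 1364 CPM in monocytes) and Lilrb4 (4.08 CPM in MDP and 559 CPM in monocytes) and the related Pira2 (0.971 CPM in MDP and 244 CPM in monocytes) belong to families of similar sequence whose reads the counting could split. Trem2, a lipid-sensing receptor, had 1.75 CPM in MDP and 175 CPM in monocytes. Cd93 was the 1 member higher in MDP (216 CPM in MDP and 49.2 CPM in monocytes), and Lair1 was within 2-fold.

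Of 26 compared lysosomal genes 18 were lower in MDP and 2 higher (median log2 ratio -1.55). Ctss, the protease cathepsin S, had 181 CPM in MDP and 2041 CPM in monocytes, and Psap, the sphingolipid activator prosaposin, 439.7 CPM in MDP and 3658 CPM in monocytes. The acid glucosidase gene Gaa (93.6 CPM in MDP and 29.8 CPM in monocytes) and the tetraspanin gene Cd63 (25.6 CPM in MDP and 5.72 CPM in monocytes) were higher in MDP. Of the 8 NADPH oxidase genes, 5 were lower in MDP and none higher (median log2 ratio -1.31). Cybb, the catalytic chain of the phagocyte oxidase, had 39.2 CPM in MDP and 1945 CPM in monocytes (49.6-fold lower in MDP, interval 42.8 to 57.6), and its partner Cyba 333 CPM in MDP and 1551 CPM in monocytes. The cytosolic subunit gene Ncf1 had 324 CPM in MDP and 456 CPM in monocytes and Rac2, the small GTPase of the complex, 932 CPM in MDP and 1080.4 CPM in monocytes, within 2-fold. Calcium-binding and lectin genes were lower in 14 of 19 (median log2 ratio -1.27), led after Lgals3 by S100a4 (63.3 CPM in MDP and 2257 CPM in monocytes) and S100a6 (86.6 CPM in MDP and 2352 CPM in monocytes), while Lgals1 had 1149.8 CPM in MDP and 835 CPM in monocytes.

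The C/EBP and IRF families were read gene by gene. In the C/EBP family, Cebpb and Cebpd were more than 4-fold lower in MDP (Cebpd had 73.4 CPM in MDP and 338 CPM in monocytes). Cebpe, known for late granule genes, was at 4.08 CPM in MDP and 22.9 CPM in monocytes. Cebpa, the factor of the granulocyte and monocyte step, had 68.0 CPM in MDP and 137 CPM in monocytes, a log2 ratio of -0.92, or -1.13 with TMM scaling, which takes it past 2-fold. Cebpg (71.5 CPM in MDP and 128 CPM in monocytes), Cebpz (88.4 CPM in MDP and 85.8 CPM in monocytes) and Ddit3 (28.2 CPM in MDP and 19.5 CPM in monocytes) were within 2-fold. None of the 7 was higher by 2-fold, and their median log2 ratio was -0.92.

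Irf8 went the other way from Cebpb: it had 935 CPM in MDP and 406 CPM in monocytes (2.30-fold higher in MDP, interval 2.07 to 2.57), a log2 ratio of 1.18, which was 0.95 with TMM scaling and so short of 2-fold. Irf8 had 318 CPM in MP, 2154 CPM in CDP and 3375 CPM in preDC, and its level in Ly6c- monocytes was below that in MP. Irf7, which drives interferon genes, had 52.8 CPM in MDP and 769 CPM in monocytes (14.6-fold lower in MDP, interval 12.6 to 16.8). Irf5, which drives inflammatory cytokine genes, had 67.4 CPM in MDP and 646 CPM in monocytes. Irf2 and Irf9 were also more than 2-fold lower in MDP, and Irf1 and Irf3 were within 2-fold, for a family median of -1.30.

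Other lineage factors lay on both sides: of 49 compared, 13 were higher in MDP and 29 lower (median log2 ratio -1.17). Of all genes 23.7% were higher and 14.1% lower, so the 13 lie near the share of all genes. Of the 49, 7 reached the filter in MDP only and 10 in monocytes only. Klf4, needed for monocyte formation, had 24.9 CPM in MDP and 572 CPM in monocytes, and CDP had 250.4 CPM. Klf2, a factor of resting leukocytes, had 8.35 CPM in MDP and 343 CPM in monocytes (41.1-fold lower in MDP, interval 29.8 to 58.0). Rara, the retinoic acid receptor alpha, had 21.2 CPM in MDP and 387 CPM in monocytes. On the MDP side stood Runx2 (169 CPM in MDP and 20.6 CPM in monocytes), Tcf4 (137 CPM in MDP and 38.9 CPM in monocytes) and Bcl11a (81.6 CPM in MDP and 21.7 CPM in monocytes), factors also known in plasmacytoid dendritic cells. Spi1, which encodes PU.1, has no row in the table.

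**Figure D4:**
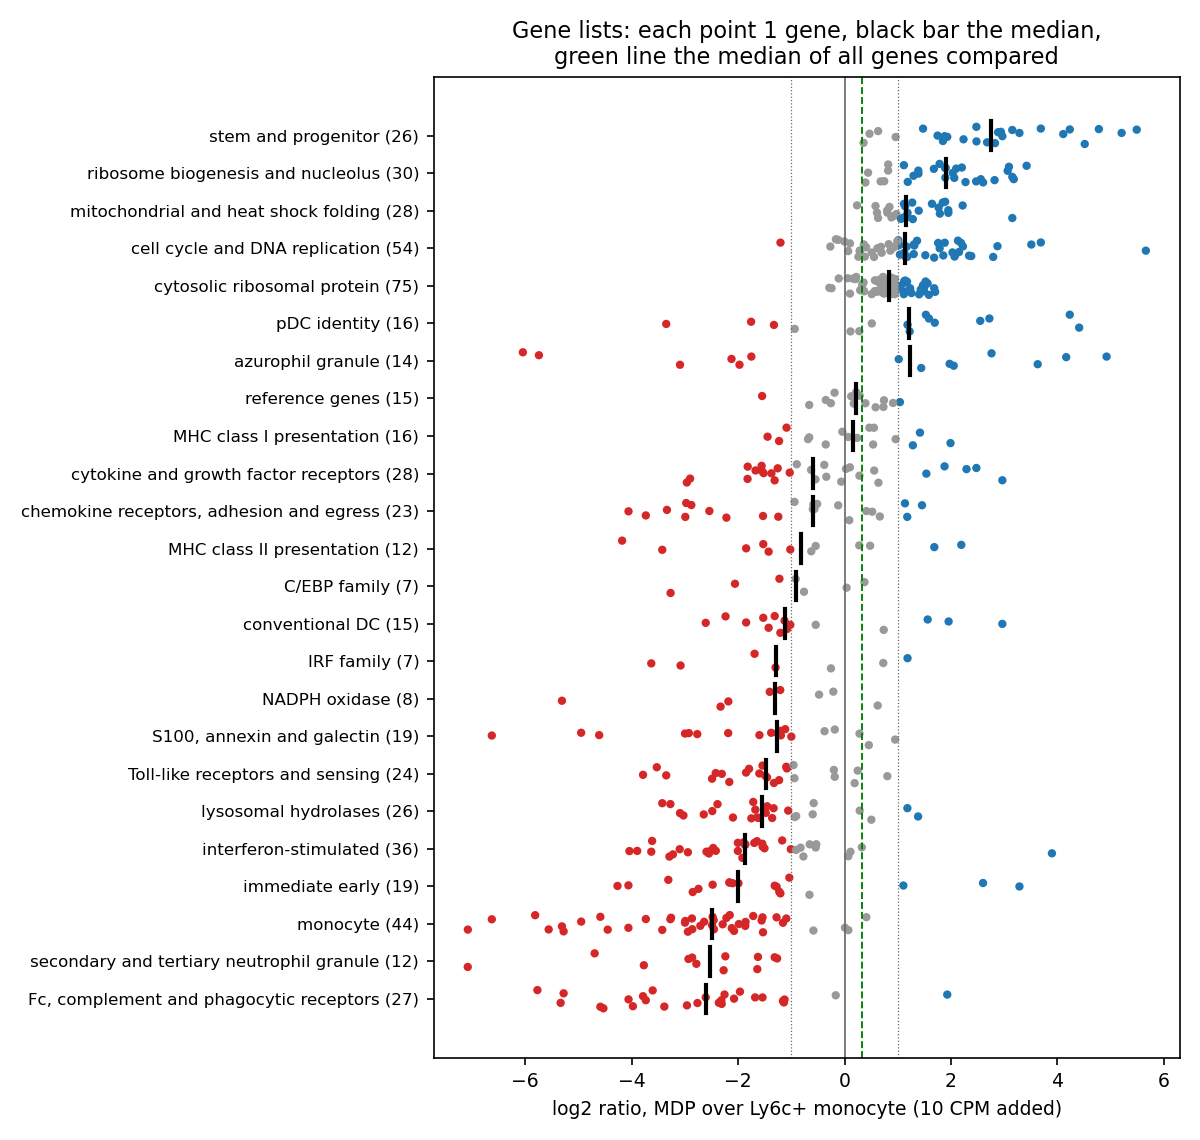
Log2 ratios of MDP over Ly6c+ monocyte (10 CPM added) by gene list, each point 1 gene, blue at least 2-fold higher in MDP, red at least 2-fold lower, grey between, with the number of genes compared in brackets. The stem and progenitor list has the highest median (2.75) of those drawn and the receptor list for antibody, complement and debris the lowest (-2.61), while the green line marks 0.32, the median of all genes compared.

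Of 54 compared cell cycle genes, 10 of which reached the filter in MDP only, 31 were higher in MDP and 1 was lower (24 and 1 with TMM scaling). The median log2 ratio of the 54 genes was 1.14. They were grouped by phase after their values were seen, so what the groups show is a description, and 6 of the 54 were placed in no group. The 21 genes placed in DNA replication had log2 ratios from 1.01 to 3.51, and with TMM scaling 17 of the 21 were 2-fold higher. Dnmt1, which copies DNA methylation at replication (0.83), and Gmnn, which limits replication licensing (0.26), are among the 6 and were within 2-fold. Mcm2, a subunit of the replicative helicase, had 172 CPM in MDP and 14.9 CPM in monocytes (11.6-fold higher in MDP, interval 6.74 to 21.8), and Dut, which clears dUTP, had 286 CPM in MDP and 16.0 CPM in monocytes. Of 20 mitosis genes 4 were 2-fold higher in MDP, near the 23.7% of all genes, and none lower, with a median of 0.53. With TMM scaling 2 of the 20 were 2-fold higher. Mki67, the gene of the proliferation antigen Ki-67, had 378 CPM in MDP and 457 CPM in monocytes, Ccnb2, a mitotic cyclin, 200.2 CPM in MDP and 219 CPM in monocytes, and the mitotic kinase gene Plk1 124 CPM in MDP and 93.9 CPM in monocytes. Mitosis genes summed to 3654 CPM in MDP and 2842 CPM in Ly6c+ monocytes, against 350.2 CPM in Ly6c- monocytes.

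The G1 regulators were split. The cyclin D genes Ccnd1 (123 CPM in MDP and 9.16 CPM in monocytes) and Ccnd2 were higher in MDP, as were their partner kinases Cdk6 (207 CPM in MDP and 6.87 CPM in monocytes, 30.2-fold higher in MDP, interval 13.8 to 82.5) and Cdk4 (1187 CPM in MDP and 219.7 CPM in monocytes). Ccnd3, the third cyclin D gene, was the 1 cell cycle gene that was 2-fold lower in MDP (351 CPM in MDP and 822 CPM in monocytes, 2.34-fold lower in MDP, interval 2.14 to 2.55). Of 11 genes linked to cell cycle exit and quiescence, 6 were lower in MDP and none was higher (median log2 ratio -1.10), where 14.1% of all genes were lower. Of the 11, 6 reached the filter in monocytes only, and 7 of 18 members with a row stayed under it. The count thus describes the genes that passed and not the list. Among the lower genes were Btg2 (12.8 CPM in MDP and 88.1 CPM in monocytes) and Btg1 (19.4 CPM in MDP and 104 CPM in monocytes). Cdkn1a, the gene of the inhibitor p21, had 165 CPM in MDP and 130.5 CPM in monocytes.

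**Figure D5:**
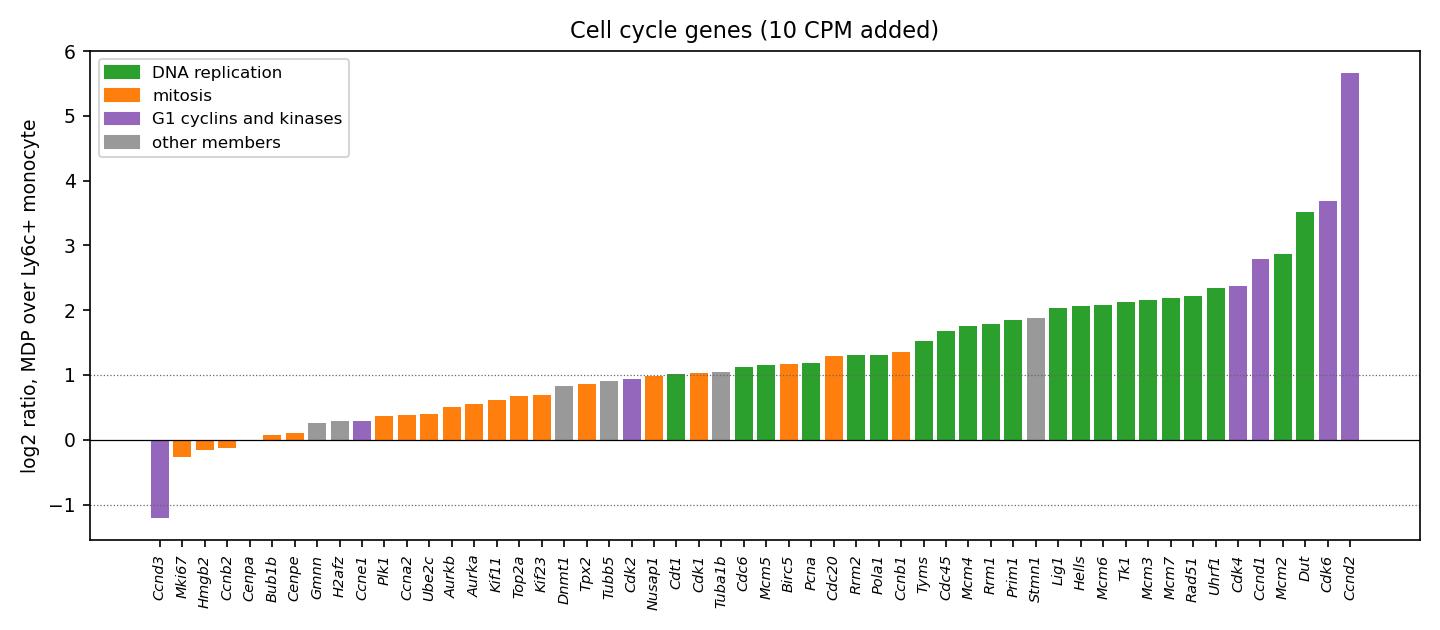
Log2 ratios of MDP over Ly6c+ monocyte for the 54 compared cell cycle genes, ordered by value and coloured by part of the cycle, with dotted lines at 2-fold. Genes placed in DNA replication (green) lie to the right of most placed in mitosis (orange), a grouping made after values were seen with 6 genes left out (grey), with Ccnd2 highest and Ccnd3 lowest.

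Genes for building ribosomes were higher in MDP for 24 of 30 compared members, and none was lower (22 and 0 with TMM scaling). Their median log2 ratio was 1.90, and 10 of the 30 reached the filter in MDP only. Gnl3, the nucleolar GTPase nucleostemin, had 195 CPM in MDP and 9.16 CPM in monocytes (21.3-fold higher in MDP, interval 10.8 to 49.5). Dkc1, which modifies ribosomal RNA, had 184 CPM in MDP and 11.4 CPM in monocytes, and Srm, which makes spermidine, 679 CPM in MDP and 71.0 CPM in monocytes. Chaperones and mitochondrial folding genes were higher for 18 of 28 (12 with TMM scaling), led by the mitochondrial chaperonin gene Hspd1 (486 CPM in MDP and 45.8 CPM in monocytes). Of 75 cytosolic ribosomal protein genes 21 were 2-fold higher in MDP, 12 with TMM scaling, and none was lower. Their log2 ratios ran from -0.29 (Rps9) to 1.70 (Rpl12) with a median of 0.84, or 0.62 with TMM scaling, and they summed to 97329 CPM in MDP and 63879 CPM in monocytes. The share of ribosomal protein genes past 2-fold (21 of 75) lies near the 23.7% of all genes.

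Cytokine receptors were higher in MDP for 5 of 28 and lower for 12 (median log2 ratio -0.59), where 23.7% of all genes were higher and 14.1% lower. Besides Flt3 and Kit, which were part of the gate, Il21r (61.4 CPM in MDP and 4.58 CPM in monocytes), Igf1r (64.7 CPM in MDP and 10.3 CPM in monocytes) and Il1r1 (22.3 CPM in MDP and 1.14 CPM in monocytes) were higher. Of the 28, 5 reached the filter in MDP only, among them Kit, Il21r, Igf1r and Il1r1, and 2 in monocytes only. These counts thus describe the genes that passed and not the list. Csf2ra, the alpha chain of the GM-CSF receptor, had 233 CPM in MDP and 1885 CPM in monocytes (8.09-fold lower in MDP, interval 7.51 to 8.73), and the TNF receptor gene Tnfrsf1b 46.4 CPM in MDP and 412 CPM in monocytes. Ifngr1 (99.2 CPM in MDP and 377 CPM in monocytes) and Ifngr2 (149 CPM in MDP and 553 CPM in monocytes), both chains of the interferon gamma receptor, were lower in MDP, whereas Ifnar1 (37.5 CPM in MDP and 36.6 CPM in monocytes) and Ifnar2 (155 CPM in MDP and 163 CPM in monocytes), the chains of the type I interferon receptor, had near-equal levels. Of 23 genes of chemokine receptors and adhesion, 3 were higher in MDP (Pecam1, Cd47 and P2ry14) and 10 lower, with a median log2 ratio of -0.60. Of the 23, 2 reached the filter in MDP only and 3 in monocytes only. Cxcr4, the receptor that holds progenitors in bone marrow, had 133 CPM in MDP and 125 CPM in monocytes.

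Genes of microbial sensing were lower in MDP for 17 of 24 and higher for none (median log2 ratio -1.48). Tlr9, a DNA sensor, had 15.5 CPM in MDP and 251 CPM in monocytes (16.1-fold lower in MDP, interval 12.4 to 21.1), Tlr2 15.0 CPM in MDP and 124 CPM in monocytes and Clec7a, which binds fungal glucans, 8.55 CPM in MDP and 246 CPM in monocytes. Tlr13 had 3 counts in MDP and 112 CPM in monocytes. Of interferon-stimulated genes 26 of 36 were lower in MDP (median log2 ratio -1.87), with Ifi27l2a at 221 CPM in MDP and 2819 CPM in monocytes and Oas2, which senses double-stranded RNA, at 6.02 CPM in MDP and 254 CPM in monocytes. The exception was Ifitm1, higher in MDP (173 CPM, against 2 counts in monocytes), which was also at 382 CPM in MP and 196 CPM in Ly6c- monocytes.

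Immediate early genes were lower in MDP for 15 of 19 (median log2 ratio -1.99), with Fos at 34.0 CPM in MDP and 427 CPM in monocytes and Atf3 at 1 count in MDP and 58.4 CPM in monocytes. Of the 19, 7 reached the filter in monocytes only and 1 in MDP only. Egr1, another gene of this class, was near the floor in both (2.52 CPM in MDP and 1.14 CPM in monocytes). Myc, Ier3 (21.4 CPM in MDP and 4.58 CPM in monocytes) and the phosphatase gene Dusp2 (211 CPM in MDP and 26.3 CPM in monocytes) were higher in MDP. Of 13 inflammatory genes 9 were lower and 1 was higher, which was Il12a, the p35 chain of IL-12 (136 CPM in MDP and 5.72 CPM in monocytes, 23.8-fold higher in MDP, interval 10.2 to 73.6). It was at 167 CPM in MP and 149.7 CPM in CDP. The median log2 ratio of the 13 was -1.28, and Il1b and Tnf did not reach the filter in either library. Of the 13, 5 reached it in monocytes only and 1 in MDP only.

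Genes of antigen presentation lay on both sides. Of 12 MHC class II genes 6 were lower in MDP (median log2 ratio -0.82), among them the invariant chain gene Cd74 (404 CPM in MDP and 1483 CPM in monocytes), H2-Aa (234 CPM in MDP and 695 CPM in monocytes) and the lysosomal reductase gene Ifi30 (117 CPM in MDP and 2298 CPM in monocytes). H2-Oa (48.0 CPM in MDP and 8.01 CPM in monocytes) and H2-Ob, which together restrain peptide loading, were higher, and H2-Ob had 35.7 CPM in MDP against 0 counts in monocytes, at least 10.4-fold. Both reached the filter in MDP only. Of the 12 class II genes, 3 did so and 1 reached it in monocytes only. Of 16 class I genes 3 were higher and 3 lower (median log2 ratio 0.15), near the shares of all genes (23.7% higher and 14.1% lower). Tap2, the partner of Tap1 in peptide transport, had 321 CPM in MDP and 73.2 CPM in monocytes, while Tap1 had 477 CPM in MDP and 342 CPM in monocytes.

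Markers of other cells were read in both libraries for what the gates could hold. Of 16 compared genes of plasmacytoid dendritic cell identity 9 were higher in MDP and 3 lower (median log2 ratio 1.20). Of the 16, 6 reached the filter in MDP only and 3 in monocytes only. Among the higher were Cox6a2 (63.5 CPM in MDP and 1.14 CPM in monocytes) and Dntt, Ptprcap and Runx2, given above. Among the lower were Upb1 (7.19 CPM in MDP and 48.1 CPM in monocytes) and Tlr9, given above. The surface genes Siglech (22.9 CPM in MDP and 17.2 CPM in monocytes) and Ly6d (20.6 CPM in MDP and 11.4 CPM in monocytes) were low in both. The list summed to 3147 CPM in MDP and 1484 CPM in monocytes, against 34331 CPM in splenic pDC. Of 15 conventional dendritic cell genes 10 were lower in MDP (median log2 ratio -1.13), 4 of them shared with the class II list (H2-Aa, H2-Ab1, Cd74 and Ciita), and Zbtb46 (1.17 CPM in MDP and 1.14 CPM in monocytes) and Xcr1 (1.17 CPM in MDP and 1.14 CPM in monocytes) were near the floor. Of the 15, 2 reached the filter in MDP only and 4 in monocytes only. The B cell genes Ms4a1, Pax5 and Ebf1, the T cell genes Cd3d and Cd3g, and the NK cell genes Prf1 and Gzma had 0 counts in both. The B cell list summed to 537 CPM in MDP, of which Dntt made most, and 135 CPM in monocytes. The T cell list summed to 510.4 CPM in MDP, mostly Cd27, and 14.9 CPM in monocytes, and the NK cell list to 122 CPM in MDP, mostly Nkg7, and 26.3 CPM in monocytes. Of 6 compared erythroid genes 1 was higher in MDP and 2 were lower (median log2 ratio -0.59). The higher one was Car2 (61.4 CPM in MDP and 3.43 CPM in monocytes), which had 325 CPM in MP. Haemoglobin genes were at 21.6 CPM in MDP and 60.7 CPM in monocytes for Hba-a2 and 19.6 CPM in MDP and 48.1 CPM in monocytes for Hbb-b1. The platelet genes Pf4 (1.17 CPM in MDP and 0 CPM in monocytes) and Gp9 (1.75 CPM in MDP and 0 CPM in monocytes) were at or near the floor. Of 3 compared basophil, mast cell and eosinophil genes 1 was higher in MDP and 2 were lower (median log2 ratio -1.67). Each of them reached the filter in 1 library only. Mcpt8, a basophil protease, had 27.4 CPM in MDP against 1 count in monocytes. Ear2 had 1 count in MDP and 71.0 CPM in monocytes, and Ear3 had 0 counts in MDP and 21.7 CPM in monocytes. Epx and Prss34 had 0 counts in both.

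Of 15 reference genes 13 were within 2-fold, Actb was lower in MDP (2346 CPM in MDP and 6887 CPM in monocytes) and Tuba1b was higher (1667 CPM in MDP and 806 CPM in monocytes), though within 2-fold with TMM scaling. Gapdh, which every cell uses, was listed at only 58.1 CPM in MDP and 67.5 CPM in monocytes, so a low value in this table need not mean a low level of the RNA.

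The position of each gene was also read over all 3 progenitor libraries (MP, MDP, CDP) and both monocyte libraries. All 3 progenitors lay above both monocyte libraries for 3261 of the 7651 genes (42.6%) and below both for 1491 (19.5%). Of the 26 stem and progenitor genes, 21 lay above, and of the 30 ribosome biogenesis genes 28 did. Of the 44 monocyte genes 32 lay below, and of the 27 receptors for antibody, complement and debris 24 did. Of the 12 secondary and tertiary granule genes 5 lay below. Ngp was one of the rest, with 90.3 CPM in MP and 32.2 CPM in MDP, against 298 CPM in Ly6c+ and 8.96 CPM in Ly6c- monocytes.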

How the data were processed

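3′ end RNA libraries of sorted mouse cells were read from the deposited table of sorted populations, which the authors deposited as estimated counts, 1 row per symbol, unscaled. The submitters' processing notes list TopHat and mm9. How reads were counted, and what was done with reads that hit several genes, is not given in the sources used here. Of the values 15.8% are not whole, and all were rounded. A row without a gene name (at most 0.0123% of a library) was left out, and 1 column that matches no label was not used. Columns were matched by name, and the column headed Lyn6+ was taken as Ly6c+ monocyte. Of 13963 symbols 13869 matched a current or older symbol of the reference. The other 2 tables, of cultured cells, were not used.

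Log2 ratios of CPM with 10 CPM added were taken for genes that reached 20 CPM in either library. Intervals are exact at 95%: binomial for ratios, Poisson for levels. TMM factors came from edgeR 4.0.16 and size factors from DESeq2 1.42.0 (R 4.3.3), over 9 sorted populations, and other steps used Python 3.11.15 and scipy 1.17.1. The functions were tested on simulated data. The members and gene lists were chosen with earlier results of these data known. Named genes follow a rule: sort and marker genes, the 15 largest ratios per direction at 100 CPM or more, from each list the 6 of largest absolute ratio and the one most opposed to its median, and all compared C/EBP and IRF genes. Genes named outside it were chosen after their values were seen, and a few genes are not reported here. Alternatives were other scalings, 1 or 20 CPM added, a filter at 100 CPM or none, no rounding, and Ly6c- monocytes in place of Ly6c+.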

Additional observations from a re-analysis of the deposited data

How the results depend on the processing

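The 2-fold counts were 1396 higher and 1309 lower with TMM scaling and 1235 and 1422 with DESeq2 size factors, with the median of all genes at 0.09 and -0.02, so the share of higher calls was 51.6% and 46.5%, against 62.8% without them. At 4-fold, where 405 were higher and 367 lower, the balance turned to 295 higher and 425 lower with TMM scaling, 253 and 462 with DESeq2 size factors and 184 and 256 with 20 CPM added, while 1 CPM added gave 912 higher and 561 lower. A filter at 100 CPM left 3014 genes, with 741 higher and 588 lower at 2-fold and 189 higher and 269 lower at 4-fold. It also turned the median of the azurophil granule list, which holds genes of both directions, to -0.37, and no filter turned that of the conventional DC list to 0.0027. Setting MDP against Ly6c- monocytes turned the sign of 22 named genes on the log2 scale. Of these, 11 were at least 2-fold apart against Ly6c+ monocytes: Ly6c2 2.47, Capg 1.36, Ngp 1.16, Ly6c1 0.96, Fn1 0.26, Lcn2 0.20, S100a9 0.11, Cebpe 0.016, Car2 -0.082, Ifitm1 -0.17 and Pecam1 -0.47. The other 11 were within 2-fold there, among them Cebpa (0.70) and Cd9 (-2.59). The cause was not tested. Placing zero counts at the floor moved no list median by more than 0.27. No replicate could be left out, and no paired analysis was possible because each population has 1 library and the labels number no replicates. The monocyte library, with fewer counts, sets the width of most intervals for genes high in MDP.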

Other observations

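The genes named here were picked after their values were seen and stand for no pathway. Phgdh, the first enzyme of serine synthesis, had 163 CPM in MDP and 11.4 CPM in monocytes, Shmt1 107 CPM in MDP and 4.58 CPM in monocytes and the mitochondrial Shmt2 404 CPM in MDP and 38.9 CPM in monocytes. Mif, a cytokine-like enzyme, had 704 CPM in MDP and 64.1 CPM in monocytes, and Bcl2, which protects cells from death, had 265 CPM in MDP and 8.01 CPM in monocytes. The apolipoprotein gene Apoe had 67.8 CPM in MDP and 1157 CPM in monocytes and Apoc2 0.971 CPM in MDP and 283 CPM in monocytes, and Ly6c- monocytes had 12773 CPM of Apoe. Hmox1, which breaks down haem, had 5.44 CPM in MDP and 172 CPM in monocytes, and the metal transporter gene Slc11a1 1.94 CPM in MDP and 182 CPM in monocytes. Some genes known as abundant in most cells or in bone marrow monocytes were listed at few counts: Npm1 had 13.8 CPM in MDP and 10.3 CPM in monocytes and S100a8 1.55 CPM in MDP and 2.29 CPM in monocytes.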
